A study of Mus musculus with 92 samples.

Results

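The 9 genes described here belong to the atrophy programme that FoxO transcription factors drive in skeletal muscle. They are the ubiquitin ligase genes Fbxo32, Trim63 and Fbxo30, the factor gene Foxo3, the growth-restraining genes Sesn1, Ddit4 and Eif4ebp1, and the autophagy genes Bnip3 and Gabarapl1. They were chosen by name from the 13441 genes of the expression table, and 9 of 9 were found. Their values were measured by RNA sequencing in the quadriceps, a thigh muscle, of 92 DOz mice, an outbred stock in which every animal has its own mixture of founder alleles. All animals had received standard chow throughout life and were between 18 and 20 weeks old, and the labels name no engineered allele or drug. The sex of the animals is not given in the sources used here. With 1 group, the comparison that the design allows is how the genes vary from animal to animal and which other genes vary with them. Each library is taken as 1 animal and is named by its number in accession order.

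In fed muscle, insulin and growth factors keep FoxO factors phosphorylated by Akt and outside the nucleus. In fasting, disuse, denervation or illness the factors enter the nucleus and switch on ubiquitin ligases that mark muscle proteins for the proteasome, together with genes of autophagy. Glucocorticoids, the hormones that rise with stress and fasting, act on some of the same genes through their own receptor, and restraint of the growth kinase mTOR is part of the same response.

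The deposited values are log2 per-million values, so a difference of 1 means a factor of 2. The median of a library lay between 3.43 and 3.55, and 8 of 8 skeletal muscle markers were abundant in every animal, with a lowest value of 9.06. The numbers in the sample titles fall into 5 runs of 33, 14, 21, 11 and 13 animals, which may be batches, although the labels do not say what they are. Between these runs 2 of 13441 genes differed (0.0149%, limma F test with Benjamini-Hochberg adjustment), and none was among the 9 genes. At an unadjusted p under 0.05, the same test gave 1120 genes, of which 2 were among the 9, Foxo3 (p = 0.0353) and Sesn1 (p = 0.0384).

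The levels of the 9 genes spanned a wide range. Per kilobase of exon, the scale used to rank levels of different genes, the mean log2 levels fell in the order Fbxo32 at 6.83, Trim63 at 6.22, Bnip3 at 5.95, Gabarapl1 at 4.43, Eif4ebp1 at 2.87, Sesn1 at 2.74, Foxo3 at 1.91, Fbxo30 at 1.72 and Ddit4 at 0.47. The muscle ligases Fbxo32 and Trim63 thus headed the order, and Ddit4 closed it. Exon length was the union of all annotated exons of a gene. Whether the deposited values were already scaled for length is not given in the sources used here. Without division by length these genes held the same places, but Eif4ebp1, at a mean of 4.0, lay below Sesn1, Foxo3 and Fbxo30 (4.73, 4.83 and 4.1). Each step between neighbours in the order per kilobase was tested within animals (permutation of the signs of the differences, two-sided, 100000 resamples). These tests take the exon lengths as exact. The step from Eif4ebp1 to Sesn1 was the smallest, at 0.13 ± 0.57 (SD of the difference, n = 92, permutation p = 0.0332), and only 53 of 92 animals had the pair in that order. The other 7 steps gave p = 1e-05, the smallest value these resamples can give, although Trim63 lay above Bnip3 in only 63 animals (difference 0.27 ± 0.52) and Foxo3 above Fbxo30 in 67 (0.18 ± 0.31). For these 3 steps the mean difference was thus smaller than its SD between animals, and single animals often had the reverse order.

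**Figure D1:**
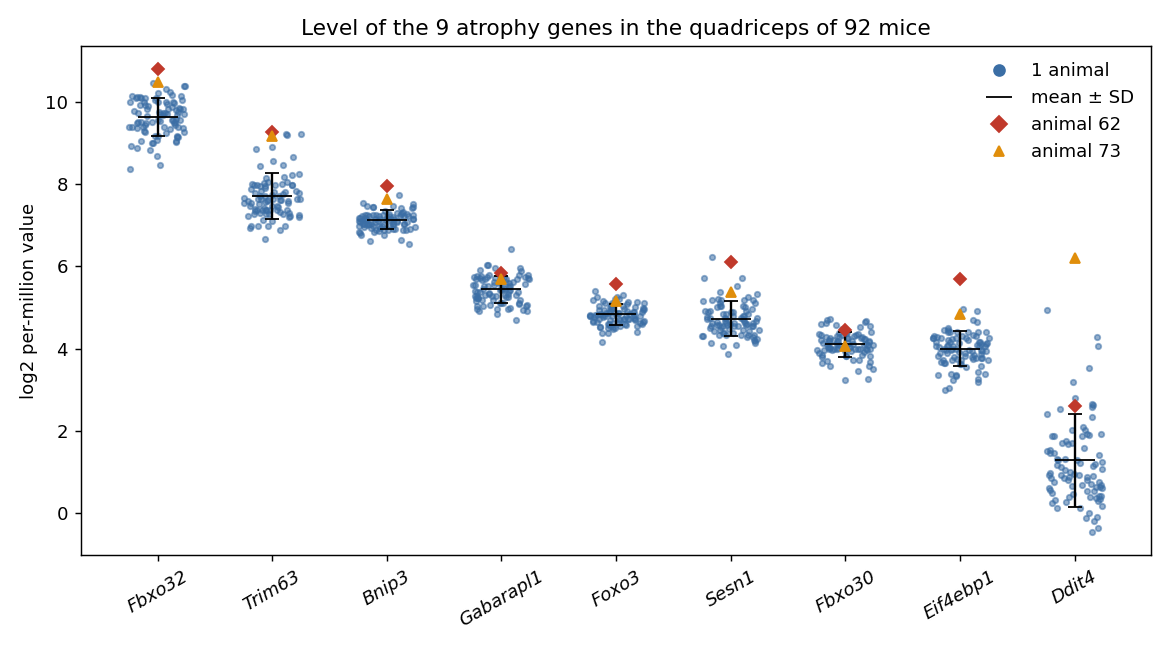
Log2 per-million value of each of the 9 atrophy genes (vertical axis) in each of 92 animals (dots), with the mean and SD in black. Genes are placed by their means on this scale, which is not divided by exon length, so their order differs from that per kilobase. Animal 62 (diamond) is the highest in 5 genes, and animal 73 (triangle) is far above the other animals in Ddit4.

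The spread between animals was also unequal. On the log2 scale the SD of the 9 genes had a median of 0.43, against 0.32 for all genes. To allow for the level of a gene, each SD was divided by the SD that a lowess trend over all genes gives at the same mean. This ratio was 2.62 for Trim63, 2.34 for Ddit4, 2.12 for Fbxo32, 1.77 for Sesn1, 1.67 for Eif4ebp1, 1.43 for Gabarapl1, 1.17 for Fbxo30, 1.11 for Bnip3 and 1.05 for Foxo3. All 9 lay above the trend, as did 48.4% of all genes. Only 2.78% of genes exceeded Trim63 in this ratio, and 3.97% exceeded Ddit4, while Foxo3 itself was close to the trend.

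All 36 pairs of the 9 genes had a positive Pearson's r over the 92 animals, from 0.0416 to 0.731 with a median of 0.303, whereas the median r of each of the 9 with all other genes lay between -0.0166 and 1.06e-05. Of the weakest pairs, Foxo3 with Eif4ebp1 and Sesn1 with Eif4ebp1 had a negative rank correlation (rho = -0.0178 and -0.0454), and without the 2 most extreme animals in Foxo3 or Sesn1 their r was -0.0375 and -0.0744. A pair was called where each gene passed an adjusted p of 0.05 in the genome-wide fit of the other, that is, limma's slope of every other gene on the standardised level of 1 gene with Benjamini-Hochberg adjustment over 13440 genes. By this rule 18 of 36 pairs were called, and all 18 were positive. With the title-number run as a covariate 15 of the 18 were called, and the pairs that missed the threshold were Fbxo32 with Sesn1 (limma adjusted p = 0.131), Trim63 with Fbxo30 (0.0601) and Trim63 with Eif4ebp1 (0.0589). In the same fits the share of all genes called was 7.43% for Fbxo32, 7.64% for Trim63, 19.6% for Fbxo30, 12.3% for Foxo3, 5.36% for Sesn1, 1.99% for Ddit4, 6.06% for Bnip3, 3.44% for Gabarapl1 and 1.03% for Eif4ebp1. Trim63 was in a called pair with each of the other 8 genes, Fbxo32, Foxo3 and Sesn1 were in 5 called pairs each, Gabarapl1 in 4, Ddit4 in 3, and Fbxo30, Bnip3 and Eif4ebp1 in 2 each. By the single-pair permutation test of Pearson's r, 26 of the 36 had an unadjusted two-sided p under 0.05.

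**Figure D2:**
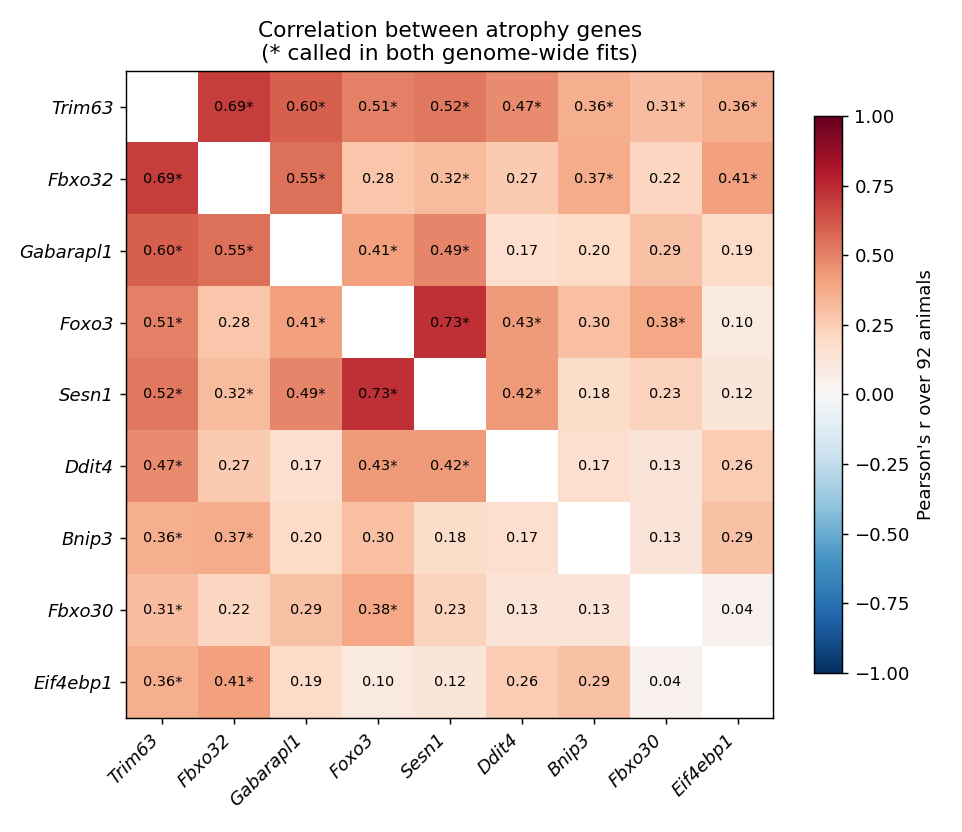
Pearson's r over 92 animals for each pair of the 9 atrophy genes, on a colour scale from -1 to 1. An asterisk marks a pair called in both genome-wide fits, and the row of Trim63 has an asterisk in each of its 8 cells, while the row of Eif4ebp1 has 2.

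Animal 62 had the highest value of all 92 in Fbxo32, Trim63, Foxo3, Bnip3 and Eif4ebp1 and the next to highest in Sesn1. As a whole library it was not the most distant, since its median root mean square log2 difference from the others, 0.738, ranked 6 of 92 in a range from 0.605 to 0.874. Without animal 62, 12 pairs were called, all of them among the 18. The pairs that then missed the threshold were Fbxo32 with Sesn1 (adjusted p = 0.146), Bnip3 (0.0816) and Eif4ebp1 (0.135), and Trim63 with Fbxo30 (0.0759), Bnip3 (0.0967) and Eif4ebp1 (0.256), in limma's larger of the 2 adjusted p-values. Under 10 alternative settings, 4 pairs were called every time, namely Fbxo32 with Trim63, Fbxo32 with Gabarapl1, Trim63 with Gabarapl1 and Foxo3 with Sesn1. With scores of the circadian clock and glucocorticoid target lists as covariates these 4 were the pairs called, and with the first 3 principal components as covariates 5 were.

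Fbxo32, also called atrogin-1 or MAFbx, is the substrate-binding part of a muscle ubiquitin ligase complex and lies on the minus strand at chr15:58175879-58214932 (mm10, GENCODE annotation). Its log2 level was 9.64 ± 0.46 (SD, n = 92), with a lowest animal at 8.38, a median of 9.68 and a highest animal at 10.8, a 5.36-fold range. No animal stood far apart, the widest gap between neighbouring values being 0.32. Higher Fbxo32 went with 509 rising genes and 489 falling ones, which are 3.79% and 3.64% of the 13440 tested.

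The gene whose level was most like that of Fbxo32 was Klhl38, which encodes a kelch-like protein. Klhl38 rose by 0.42 ± 0.03 (SE, n = 92) log2 units per SD of Fbxo32 (r = 0.862, limma adjusted p = 5.58e-25, rho = 0.871). Both correlations had the smallest permutation p, 1e-05, leaving out the 2 most extreme animals in Fbxo32 gave r = 0.851, and r lay between 0.591 and 0.955 within the title-number runs. Klhl38 lies at chr15:58314573-58324169, 99.6 kb from Fbxo32. Of the 19 measured genes within 1 Mb of Fbxo32, Klhl38 and Gm15943 passed the threshold, beside 7.43% of all genes. The median r of the 19 was -0.00191. Gm15943 (r = 0.734, limma adjusted p = 3.54e-13) is an antisense gene that reaches over both of them. Its exons overlap an exon of Fbxo32 by 186 bases and those of Klhl38 by 1446 of the 2212 exon bases of Klhl38, and its r with Klhl38 was 0.763. Whether the counting used strand is not given in the sources used here, so reads of these overlaps cannot be told apart between the genes, and their part in the result was not tested. Klhl38 and Fbxo32 share no exon.

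**Figure D3:**
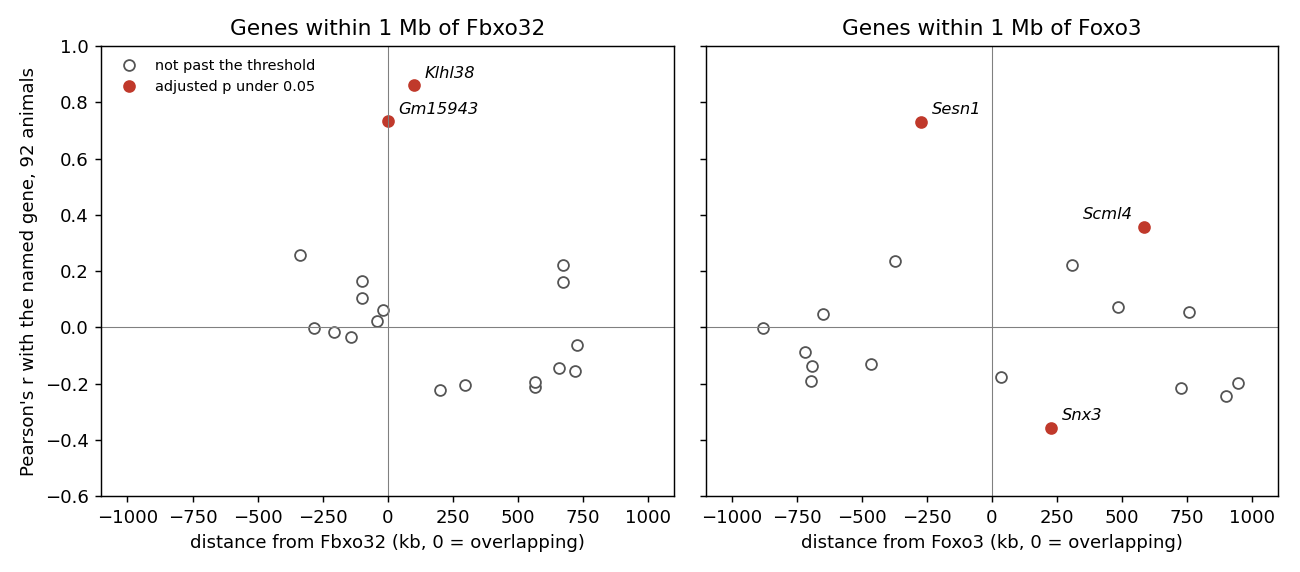
Pearson's r over 92 animals (vertical axis) of the genes within 1 Mb of Fbxo32 (left) and of Foxo3 (right) against their distance in kb, with filled points for limma adjusted p under 0.05. Klhl38 at 99.6 kb from Fbxo32 and Sesn1 at 273.4 kb from Foxo3 stand far above the other neighbours, apart from the overlapping antisense gene Gm15943.

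The other leading partners of Fbxo32 were Tmem140, a transmembrane protein gene (r = 0.699), and, in the opposite direction, Cdc42ep2, an effector of the small GTPase Cdc42 (r = -0.606), and Mrtfa, the actin-regulated coactivator of serum response factor (r = -0.6). Each had a permutation p of 1e-05, the same sign in each title-number run, and an adjusted p in limma of 2.34e-07 or less. Mrtfa had negative values of the same kind with Trim63 (r = -0.713) and Gabarapl1 (r = -0.692), and these were the leading negative relations of both.

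Trim63, also called MuRF1, is a RING-finger ubiquitin ligase of the sarcomere that acts on thick-filament proteins, and lies on the plus strand at chr4:134315120-134329629 (mm10). Its promoter is printed because it holds a match to the FoxO element and one to the glucocorticoid response element. The 250 bases before the RefSeq start site (GRCm38.p6, plus strand, chr4:134314870-134315119) read, with capitals for a match to the glucocorticoid response element and then for a match to the FoxO element:
Trim63: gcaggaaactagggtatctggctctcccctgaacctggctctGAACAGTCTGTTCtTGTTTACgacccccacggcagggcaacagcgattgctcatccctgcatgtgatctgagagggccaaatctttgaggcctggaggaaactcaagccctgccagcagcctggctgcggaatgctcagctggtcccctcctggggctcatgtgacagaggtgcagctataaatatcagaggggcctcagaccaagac

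The first match, from -208 to -196 relative to the start site, consists of GNACA and TGTNC with 3 free bases between them, which was found in 0.475% of the 32851 RefSeq promoters searched on both strands. The second, from -194 to -188, is GTAAACA read on the opposite strand, which was found in 3.65% of promoters. The 2 do not overlap, and 1 base separates them. RefSeq promoters were matched for 7 of the 9 genes, not for Fbxo32 and Eif4ebp1, which gave 8 start sites because Sesn1 has 2. Of these 8, only that of Trim63 held the glucocorticoid element, and the one other FoxO match lay after a start site of Sesn1, from 23 to 29. The amino acid response element TGATGNAA, found in 3.97% of promoters, was in 0 of the 8. The search, also for the shares of all promoters, took in bases just after the start site, which are not printed. These are matches of letters in a window and not measured binding.

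The log2 level of Trim63 was 7.72 ± 0.56 (SD, n = 92), from 6.67 in the lowest animal through a median of 7.63 to 9.27 in the highest, a 6.04-fold range. The quartiles were 7.36 and 7.98, and animals 62, 19, 67 and 83, all at 9.19 or above, were the highest. Trim63 and Fbxo32 were closely related (r = 0.692, rho = 0.722, both permutation p = 1e-05, adjusted p in limma 2.56e-11). Leaving out the 2 most extreme animals in Fbxo32 gave r = 0.671, and r lay between 0.454 and 0.802 within the title-number runs. The 2 ligases nevertheless did not share their highest animals in full, since 3 of the 10 highest were common to both. Per kilobase of exon, the log2 level of Fbxo32 minus that of Trim63 within an animal was 0.62 ± 0.41 (SD, n = 92), and 7 animals had the reverse order.

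Trim63 called 469 rising genes (3.49%) and 558 falling ones (4.15%). Those most like it were Wbp1l, a gene for a WW-domain-binding protein (r = 0.743), Maff, a small Maf transcription factor gene (r = 0.74), and Fbxo32. Mrtfa and the semaphorin gene Sema6d (r = -0.646) were the most opposed. All of these had a permutation p of 1e-05 and, within the title-number runs, r of the same sign, for Wbp1l from 0.655 to 0.853.

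**Figure D4:**
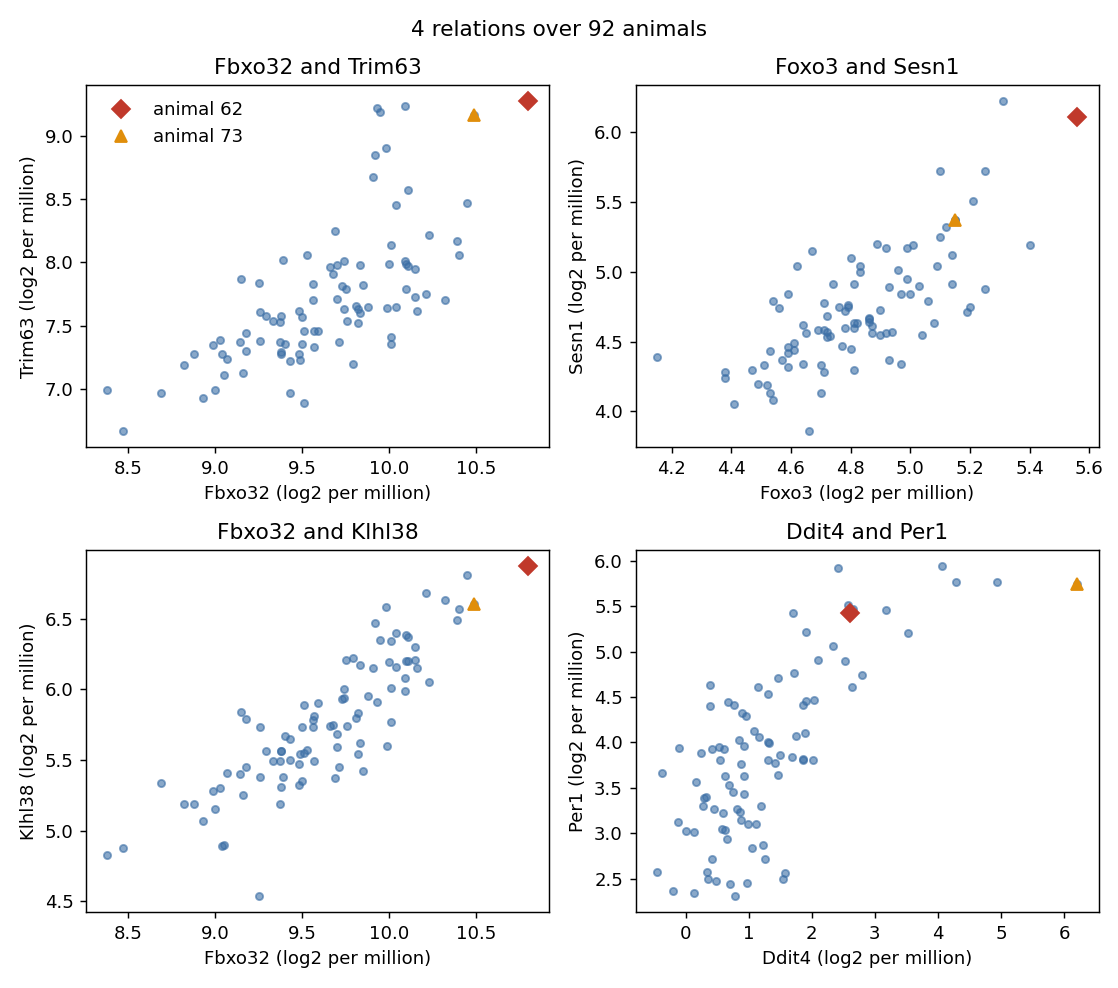
Log2 per-million values of Fbxo32 and Trim63, Foxo3 and Sesn1, Fbxo32 and Klhl38, and Ddit4 and Per1 in 92 animals (dots), with animals 62 and 73 marked. The r of the 4 pairs was 0.692, 0.731, 0.862 and 0.729, and the high end of Trim63 is spread over a range of Fbxo32 values.

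Since the 2 ligases rise together, a model with both was fitted to ask which genes followed one more than the other. It was added after the first results were known, as 1 of 3 such models. The slope on Trim63 and the slope on Fbxo32 differed for 209 of 13439 genes (1.56%, limma adjusted p under 0.05), with 143 higher for Trim63 and 66 higher for Fbxo32. Genes that followed Trim63 more were the metallothionein genes Mt2 (difference 2.33 ± 0.37 (SE, n = 92), limma adjusted p = 1.3e-05) and Mt1 (1.61 ± 0.25), the arrestin-domain gene Arrdc2 (1.22 ± 0.25) and the clock gene Per1 (0.93 ± 0.22). Foxo1 (0.50 ± 0.1) and the cell cycle inhibitor Cdkn1a (0.72 ± 0.16) did so too. Genes that followed Fbxo32 more were Mss51, a mitochondrial gene of skeletal muscle (-1.08 ± 0.23), the Wnt receptor gene Fzd7 (-0.57 ± 0.09), myostatin, Mstn, the secreted brake on muscle growth (-0.44 ± 0.11), and the repressor gene Bcl6 (-0.44 ± 0.09).

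Of 16 glucocorticoid targets, 5 had a larger slope on Trim63 and 0 on Fbxo32, but with ranks and with principal components 2 did, and with the clock and glucocorticoid scores 0. Of 16 other FoxO targets, 3 had a larger slope on Fbxo32 and 0 on Trim63. The differences of Fzd7 and Bcl6 passed the threshold under all 10 alternative settings, and those of Mt1 and Mt2 under all but the clock and glucocorticoid scores, which hold Mt1 and Mt2 themselves. The other 2 models compared Trim63 with Bnip3 (270 genes, 2.01%) and Foxo3 with Sesn1 (226 genes, 1.68%), and neither count was stable. The former ranged from 18 with principal components to 411 without the most extreme animals of either gene, and the latter went down to 8 without such animals and to 1 with ranks.

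Fbxo30, also called MUSA1, is the substrate-binding part of a ligase complex that is induced in denervated muscle, and lies on the plus strand at chr10:11281330-11298052 (mm10). Its log2 level was 4.10 ± 0.30 (SD, n = 92), with values from 3.23 through a median of 4.1 to 4.71. The widest gap between neighbouring animals was 0.18, so none stood apart. Of the 9 genes it had the largest number of associated genes, 1521 rising (11.3%) and 1112 falling (8.27%), but among the 9 it was called only with Foxo3 (r = 0.384) and Trim63 (r = 0.308). Without the 2 animals that were most extreme in Fbxo30, 1177 genes were called in all in place of 2633. The pairs with Foxo3 and Trim63 were not called without the 2 most extreme animals (limma's larger adjusted p = 0.0527 and 0.173). They also missed the threshold with principal components (0.513 and 0.787) and with clock and glucocorticoid scores (0.197 and 0.585).

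The genes most like Fbxo30 were Filip1, which encodes a filamin-interacting protein (r = 0.689), the Rab regulator gene Tbc1d15 (r = 0.66) and the nuclear pore gene Nup98 (r = 0.652), while Plpp7, of the phospholipid phosphatase family (r = -0.574), and the mitochondrial ribosome gene Mrpl23 (r = -0.568) were the most opposed. The within-run r of Nup98 went as low as 0.00971. Of the 9 fast-fibre markers, 6 fell with Fbxo30 (median slope -0.05), where 8.27% of all genes fell. Among them were Actn3 at -0.12 and Atp2a1, the calcium pump of fast fibres, at -0.10 log2 units per SD. Of 8 skeletal muscle markers 3 fell as well, namely Cacna1s, Ckm and Acta1. Neb, Ttn, Mb and Ryr1 had positive slopes (0.03, 0.04, 0.03 and 0.03) and Des one of -0.02, none of them called. Over the 9 atrophy genes, 7 of 81 fast-fibre relations (8.64%) and 7 of 72 skeletal muscle relations (9.72%) were called, against 7.2% for all genes. The summed level of the fast-fibre list ranged from 97800 to 188000 in per-million values over the animals, and the lowest log2 value of any of the 9 markers was 11.58. With 7 marker scores as covariates, the fast-fibre score among them, 1569 genes were called for Fbxo30. In bulk tissue, fewer cells or fibres of a type and less RNA in each cannot be told apart.

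Foxo3 encodes the FoxO factor whose activation is sufficient for atrophy in mouse muscle, and lies on the minus strand at chr10:42181841-42276755 (mm10). Its log2 level was 4.83 ± 0.25 (SD, n = 92), from 4.15 through a median of 4.81 to 5.56. This was a 2.65-fold span, and the widest gap between neighbouring animals was 0.23. FoxO activity is set largely by phosphorylation and location in the cell, which RNA does not show. Foxo3 went with 924 rising genes (6.88%) and 723 falling ones (5.38%).

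Of the 3 ligase genes, Trim63 and Fbxo30 were called with Foxo3. Foxo3 and Trim63 gave the larger value (r = 0.505, rho = 0.349, permutation p = 1e-05 and 0.0006, adjusted p in limma 3.77e-05), with r from 0.315 to 0.672 within the title-number runs. For Foxo3 and Fbxo30, r was 0.384 (adjusted p in limma 0.00454), and 7 of the 10 highest animals in Trim63 were also among the 10 highest in Foxo3. Foxo3 and Fbxo32 were not called (r = 0.275, rho = 0.235, permutation p = 0.00796 and 0.0229, adjusted p in limma 0.0765), although the pair passed with animals centred on their median (adjusted p = 0.0421). Whether the r of Foxo3 with Trim63 differs from that with Fbxo32 was not tested. Foxo3 was also not called with Bnip3 (r = 0.299, adjusted p in limma 0.0553), although that pair passed with the filter on a mean of at least 1 (0.0497) and with centring (0.0286), or with Eif4ebp1 (r = 0.0978, adjusted p in limma 0.758).

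The closest pair of all was Foxo3 and Sesn1, which are neighbours on chromosome 10, 273.4 kb apart. Sesn1 rose by 0.31 ± 0.03 (SE, n = 92) log2 units per SD of Foxo3 (r = 0.731, rho = 0.708, both permutation p = 1e-05, limma adjusted p = 3.48e-13). Leaving out the 2 most extreme animals in Foxo3 gave r = 0.708, and r was between 0.446 and 0.858 within the title-number runs. Of 17 measured genes within 1 Mb of Foxo3, Sesn1, Snx3 (r = -0.356) and Scml4 (r = 0.358) passed the threshold, beside 12.3% of all genes, and the median r of the 17 was -0.0863. The other partners of Foxo3 were Klf15, a Krüppel-like factor gene induced by glucocorticoids (r = 0.745), and Glul, glutamine synthetase (r = 0.685), against Cited4, a transcriptional coactivator gene (r = -0.649), and the calmodulin gene Calm2 (r = -0.597).

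Sesn1 encodes a sestrin, a leucine-sensing restraint on mTOR complex 1, and lies on the plus strand at chr10:41809935-41908424 (mm10). On the log2 scale its level was 4.73 ± 0.43 (SD, n = 92), from 3.86 through a median of 4.65 to 6.22, and its 2 highest animals, 53 at 6.22 and 62 at 6.11, stood 0.38 above the next. It went with 335 rising genes (2.49%) and 385 falling ones (2.86%). After Foxo3 its closest partners were Klf15 (r = 0.711) and Slc7a2, a transporter gene for cationic amino acids (r = 0.626), against Relt, of the TNF receptor family (r = -0.597), and Gypc, glycophorin C (r = -0.586). For Slc7a2, r went to 0.49 when the 2 most extreme animals in Sesn1 were left out. With the title-number run as a covariate, 456 genes were called for Sesn1 in place of 720.

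Ddit4, also called REDD1, is a stress-induced inhibitor of mTOR complex 1, and lies on the minus strand at chr10:59949669-59951834 (mm10). Its log2 level was 1.28 ± 1.13 (SD, n = 92), from -0.46 through a median of 0.98 to 6.21, a range of 102-fold. Most animals were low, with an upper quartile of 1.78, and 4 animals lay above 4. These were animal 73 at 6.21, animal 55 at 4.93, animal 52 at 4.29 and animal 53 at 4.07, and the gap of 1.29 below animal 73 was the widest in any of the 9 genes. The same 4 animals were among the 9 highest in Trim63 and in Foxo3, with ranks from 5 to 9 in Trim63 and from 3 to 9 in Foxo3.

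The relations of Ddit4 to Trim63, Foxo3 and Sesn1 were larger by Pearson's r than by rank. With Trim63 it gave r = 0.469 and rho = 0.226 (permutation p = 1e-05 and 0.0293, adjusted p in limma 0.000316), and r = 0.37 when the 2 most extreme animals in Ddit4 were left out. With Foxo3, r was 0.427 and rho 0.282 (permutation p = 1e-05 and 0.00679), and with Sesn1, r was 0.425 and rho 0.204 (permutation p = 4e-05 and 0.0513), and without the same 2 animals r was 0.387 and 0.438. All 3 pairs missed the threshold when ranks, as normal scores, replaced the values, with adjusted p in limma of 0.385, 0.0848 and 0.28. They also missed it with the first 3 principal components as covariates (limma adjusted p = 0.542, 0.304 and 0.413). With clock and glucocorticoid scores as covariates the slope of Ddit4 was -0.2 per SD of Trim63, -0.1 per SD of Foxo3 and 0.03 per SD of Sesn1, none of them called. Within title-number runs the r of Ddit4 and Trim63 ranged from -0.391 to 0.726.

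Ddit4 went with 164 rising genes (1.22%) and 103 falling ones (0.766%). Its partners were Arrdc2 (r = 0.746, rho = 0.616), Cebpd, a C/EBP transcription factor gene (r = 0.743, rho = 0.624), and Per1 (r = 0.729, rho = 0.658), each with permutation p = 1e-05 for both measures. In the opposite direction stood Has3, a hyaluronan synthase gene (r = -0.589), and Kdr, the main endothelial receptor for VEGF (r = -0.575). The r of Kdr within the title-number runs went from -0.889 to 0.202. With the clock and glucocorticoid scores as covariates 7 genes were called for Ddit4 in place of 267, and the relations to Arrdc2 (adjusted p = 0.319), Per1 (0.0735), Has3 (0.836) and Kdr (0.897) missed the threshold. Arrdc2, Cebpd and Per1 are themselves members of those scores.

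Eif4ebp1 encodes 4E-BP1, the repressor of cap-dependent translation that mTOR inactivates, and lies on the plus strand at chr8:27260329-27276674 (mm10). The level was 4.0 ± 0.43 on the log2 scale (SD, n = 92), from 2.98 through a median of 4.0 to 5.7. Animal 62 was alone at the top, 0.73 above the next animal at 4.97. It had the fewest associated genes of the 9, with 81 rising (0.603%) and 57 falling (0.424%), and without animal 62 the total was 14. Its called pairs were with Fbxo32 (r = 0.411, rho = 0.305, permutation p = 3e-05 and 0.00324) and Trim63 (r = 0.364, rho = 0.295, permutation p = 0.00036 and 0.00444), neither of which was called without animal 62. Its partners were Npm1, the nucleolar chaperone nucleophosmin (r = 0.579), Sqstm1, the autophagy receptor p62 (r = 0.568), and the annexin gene Anxa7 (r = 0.509), against Trim35 (r = -0.531) and Mdga1 (r = -0.52). Those 5 relations passed the threshold under all 10 alternative settings.

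Bnip3 encodes a mitochondrial receptor for autophagy that both FoxO3 and hypoxia-inducible factor are known to induce, and lies on the minus strand at chr7:138890836-138909519 (mm10). Its promoter is printed because it holds the one E-box among the 8 promoters. The E-box CACGTG, in capitals, lies from -108 to -103 in the 250 bases before the RefSeq start site (GRCm38.p6, minus strand, chr7:138909507-138909756):
Bnip3: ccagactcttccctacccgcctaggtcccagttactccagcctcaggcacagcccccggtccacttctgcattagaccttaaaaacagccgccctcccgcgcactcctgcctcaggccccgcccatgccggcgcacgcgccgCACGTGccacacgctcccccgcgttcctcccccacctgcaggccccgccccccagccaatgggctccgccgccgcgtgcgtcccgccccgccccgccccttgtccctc

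The letters CACGTG, searched on both strands and also just after the start site, were found in 7.15% of all promoters. The log2 level of Bnip3 was 7.13 ± 0.23 (SD, n = 92), from 6.54 through a median of 7.11 to 7.95, so the range was a modest 2.67-fold. It went with 464 rising genes (3.45%) and 351 falling ones (2.61%), or 294 in all without animal 62. Its called pairs were with Fbxo32 (r = 0.369) and Trim63 (r = 0.365), and it was not called with Gabarapl1 (r = 0.198, adjusted p in limma 0.348). Its partners were Gpcpd1, a glycerophosphocholine phosphodiesterase gene (r = 0.574), the ubiquitin-conjugating enzyme gene Ube2b (r = 0.554) and Gpt2, the mitochondrial alanine aminotransferase (r = 0.548), against the tetraspanin gene Cd81 (r = -0.549) and the tubulin gene Tuba1b (r = -0.506). All 5 had a permutation p of 1e-05. An exon of Bnip3 overlaps one of an antisense gene, Gm45507, by 342 bases, and reads of that overlap cannot be told apart.

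Gabarapl1 encodes a member of the Atg8 family, the proteins that are attached to the growing autophagosome membrane, and lies on the plus strand at chr6:129533160-129542346 (mm10). Its log2 level was 5.44 ± 0.32 (SD, n = 92), from 4.69 through a median of 5.44 to 6.43, and the highest, animal 19, stood 0.39 above the next. That animal was also next to highest in Trim63 and Fbxo30. Gabarapl1 was called with Trim63 (r = 0.596, rho = 0.579), Fbxo32 (r = 0.549, rho = 0.545), Sesn1 (r = 0.492, rho = 0.532) and Foxo3 (r = 0.414, rho = 0.409), with permutation p-values from 1e-05 to 3e-05. It thus followed the 2 muscle ligases more closely, by r, than it followed Bnip3, a difference that was not tested. It went with 231 rising and 231 falling genes, 1.72% each.

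The genes most like Gabarapl1 were Tmem140 (r = 0.763), Pdk4, the kinase that switches off pyruvate dehydrogenase in fasting (r = 0.644), and Flcn, folliculin, a regulator of mTOR complex 1 at the lysosome (r = 0.632). Mrtfa and Plekhh3 (r = -0.648) were the most opposed. These 5 passed the threshold under all 10 alternative settings. An exon of Gabarapl1 overlaps one of 1700101I11Rik, a gene on the other strand that was not analysed here, by 377 bases.

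Other genes of the pathway were described by lists set by role. Of all relations between 186 listed pathway genes and the 9 atrophy genes, 307 of 1674 (18.3%) passed the threshold, 72 of them in the glucocorticoid list, against 7.2% of the 120960 relations of all genes with the 9. In the list of other known FoxO targets, 6 of 16 rose with Fbxo32, Trim63, Foxo3 and Gabarapl1 each, where 3.79%, 3.49%, 6.88% and 1.72% of all genes rose. With Fbxo30 5 rose, with Sesn1 3, with Bnip3 2 and with Ddit4 and Eif4ebp1 1 each, and 0 fell with any of the 9. The median slopes for Fbxo32, Trim63, Foxo3 and Gabarapl1 were 0.07, 0.02, 0.07 and 0.07, against medians of -0.002, -0.004, -0.005 and -0.005 over all genes. Pdk4 rose by 0.63 ± 0.08 (SE, n = 92) per SD of Gabarapl1, the insulin signalling adaptor gene Irs2 by 0.35 ± 0.06 per SD of Fbxo32 (r = 0.546), Ccng2, cyclin G2, by 0.12 ± 0.02 per SD of Foxo3 (r = 0.57), and Insr, the insulin receptor, by 0.12 ± 0.02 per SD of Fbxo30 (r = 0.523). The targets Sod2, Txnip and Bcl2l11 passed with none of the 9.

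In the list of 13 FoxO factors and their regulators, 28.2% of the relations with the 9 genes were called, against 7.2% for all genes. Of the 13, 8 were called with Fbxo30, 6 each with Foxo3 and Bnip3, and 3 each with Fbxo32, Trim63 and Gabarapl1. With Sesn1 2 were called, and with Ddit4 and Eif4ebp1 1 each. The shares of all genes called were 19.6%, 12.3%, 6.06%, 7.43%, 7.64%, 3.44%, 5.36%, 1.99% and 1.03% in the same order. The factor gene Foxo1 rose with 8 of the 9 genes, all but Eif4ebp1, by up to 0.31 ± 0.04 per SD of Foxo3 (r = 0.629, rho = 0.348). Foxo4 passed with none of them, and Foxo6, at a mean of 1.76, fell with 6, by 0.27 per SD of Trim63. Ppargc1a, the coactivator PGC-1α, rose with 7 genes, by 0.34 ± 0.06 per SD of Trim63 (r = 0.528). The kinase gene Pdpk1 (r = 0.625) and the deacetylase gene Sirt1 (r = 0.53) rose with Fbxo30, by 0.12 ± 0.02 and 0.13 ± 0.02, though the r of Sirt1 within the title-number runs went down to -0.2.

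In the ubiquitin system, 7 of 20 genes rose with Fbxo32, 7 with Fbxo30, 6 with Trim63, 6 with Foxo3 and 5 with Bnip3, and Stub1 alone fell, with Fbxo30 and Foxo3. The shares of all genes that rose were 3.79%, 11.3%, 3.49%, 6.88% and 3.45% in the same order, and 36 of 180 ubiquitin relations (20.0%) were called over the 9 genes. The polyubiquitin gene Ubb rose by 0.08 ± 0.01 per SD of Trim63 (r = 0.542), and the ligase gene Nedd4 by 0.11 ± 0.02 per SD of Fbxo30 (r = 0.512). Trim54 and Trim55, which encode the relatives MuRF3 and MuRF2 of Trim63, did not pass the threshold with Trim63, with slopes of 0.03 and -0.04 (limma adjusted p = 0.346 and 0.195), while Trim54 rose by 0.06 per SD of Fbxo32.

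Of 24 autophagy genes, 8 rose with Foxo3, 6 with Sesn1, 3 with Trim63 and 2 with Fbxo32, and for Fbxo30 3 rose and 4 fell. Of all genes 6.88% rose with Foxo3, 2.49% with Sesn1, 3.49% with Trim63 and 3.79% with Fbxo32, and 11.3% rose and 8.27% fell with Fbxo30, so that the 3 that rose with Fbxo30 were near the share of all genes. Over the 9 genes, 32 of 216 autophagy relations (14.8%) were called. Sqstm1 rose by 0.13 ± 0.02 per SD of Fbxo32 (r = 0.595), and Ulk1, the kinase that starts autophagy, by 0.12 ± 0.02 (r = 0.476). Lamp2, a lysosomal membrane gene (r = 0.483), and Ulk2 (r = 0.459) rose with Fbxo30. Of the genes for the core conjugation machinery, Atg5, Atg12, Atg16l1 and Becn1 passed with none of the 9. Gabarap and Gabarapl2, the closest relatives of Gabarapl1, both fell with Fbxo30, by 0.06 and 0.04, and passed with no other gene of the 9.

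Of 19 mTOR and translation genes, 4 rose with Fbxo32 and 4 with Bnip3, where 3.79% and 3.45% of all genes rose, and 2 rose with Eif4ebp1, where 0.603% did. In all, 14 relations of the list (8.19%) were called, near the 7.2% of all genes. In this list 0 were called for Sesn1, Ddit4 and Foxo3 (3, 2 and 3 at an unadjusted p under 0.05 in limma). Of all genes, 5.36%, 1.99% and 12.3% were called in the same order. Rictor rose by 0.15 ± 0.03 per SD of Fbxo32 (r = 0.431) and Rheb by 0.06 ± 0.02 per SD of Bnip3 (r = 0.365). Rheb missed the threshold with marker scores (limma adjusted p = 0.161), with principal components (0.63) and without the 2 most extreme animals (0.0631). Rictor missed it with principal components (0.163). For Eif4ebp1 the genes Eef2 (r = 0.389, limma adjusted p = 0.0264) and Rps6 (r = 0.37, limma adjusted p = 0.0425) rose. Without animal 62 their slopes were 0.04 and 0.05, in place of 0.07 and 0.05, and both missed the threshold, with limma adjusted p = 0.306 and 0.164. Rps6 missed it under 6 other settings as well, and Eef2 under 3.

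Glucocorticoid targets formed the list with the most calls. Of its 16 genes, 13 rose with Trim63, 13 with Foxo3, 11 with Sesn1, 11 with Ddit4, 8 with Fbxo32, 8 with Gabarapl1, 4 with Bnip3, 3 with Fbxo30 and 1 with Eif4ebp1, and 0 fell. The shares of all genes that rose were 3.49%, 6.88%, 2.49%, 1.22%, 3.79%, 1.72%, 3.45%, 11.3% and 0.603% in the same order. In all, 72 of the 144 relations of the list were called. The median slope was 0.3 for Trim63, 0.22 for Foxo3 and 0.25 for Ddit4, against -0.004, -0.005 and 0 over all genes. Per SD of Trim63, Mt2 rose by 1.18, Mt1 by 0.80, Arrdc2 by 0.74, Cebpd by 0.52, Tsc22d3, the leucine zipper GILZ, by 0.28 and Klf15 by 0.27 log2 units. Klf15 rose by 0.33 ± 0.03 and Glul by 0.40 ± 0.04 per SD of Foxo3. Hsd11b1, which regenerates active glucocorticoid, and Sgk1 passed with none of the 9, and the receptor gene Nr3c1 rose with Foxo3 (0.11) and Fbxo30 (0.09). Fkbp5 passed with Trim63 (0.31) and Bnip3 (0.27) alone.

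**Figure D5:**
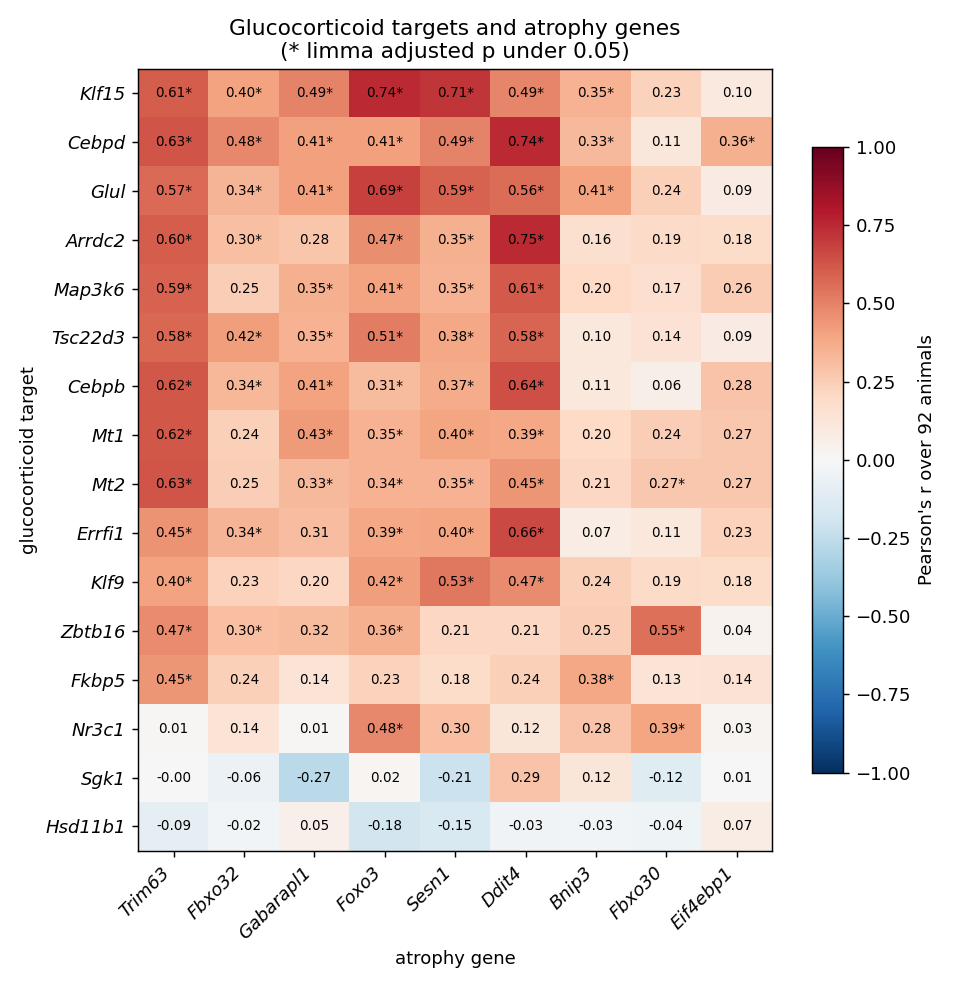
Pearson's r over 92 animals between each of 16 glucocorticoid targets (rows) and each of the 9 atrophy genes (columns), with an asterisk for limma adjusted p under 0.05. The columns of Trim63 and Foxo3 have 13 asterisks each, and the columns of Bnip3, Fbxo30 and Eif4ebp1 have 4, 3 and 1.

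The counts for Trim63 and Ddit4 were the same without animal 62, at 13 and 11, while those for Bnip3 and Eif4ebp1 went to 0 and 0 and that for Fbxo32 to 4. Without the 2 most extreme animals of each gene the count was 6 for Sesn1, 1 for Fbxo30 and 1 for Bnip3, and with ranks 5, 2 and 2, in place of 11, 3 and 4. With the first 3 principal components as covariates the counts were 1 for Trim63, 6 for Foxo3, 5 for Sesn1, 8 for Ddit4 and 0 for Fbxo32. Each of the 9 genes had r between 0.241 and 0.624 with the third of these components.

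Of 15 circadian clock genes, 2 rose and 3 fell with Trim63, where 7.64% of all genes passed in either direction, and 2 rose and 1 fell with Ddit4, where 1.99% passed. With Sesn1, 2 rose and 2 fell (5.36% of all genes), and with Bnip3 and Eif4ebp1 0 passed in limma, although 4 and 1 had an unadjusted p under 0.05. Besides Per1, which is also a glucocorticoid-responsive gene, Nfil3 rose by 0.46 ± 0.07 per SD of Trim63 (r = 0.589). Nr1d1 fell by 0.22 ± 0.03 per SD of Ddit4 (r = -0.561, rho = -0.321), and Clock rose by 0.14 ± 0.02 per SD of Fbxo30 (r = 0.533). Nr1d1 missed the threshold with ranks (limma adjusted p = 0.0769), and Nfil3 with principal components (0.586). Both missed it with the clock and glucocorticoid scores (0.552 and 0.146), which hold both genes. The clock gene Dbp fell with Fbxo32 and Trim63, by 0.38 each, and with Gabarapl1 and Sesn1. The time of day at which tissue was taken is not given in the sources used here. Of 10 immediate-early genes 4 rose with Trim63, where 3.49% of all genes rose, 3 with Gabarapl1, 2 each with Fbxo32 and Sesn1 and 1 each with Foxo3 and Ddit4, and 2 fell with Bnip3. Over the 9 genes 15 of 90 such relations (16.7%) were called. With Trim63, Junb rose by 0.44 ± 0.07 (r = 0.569) and Jun by 0.18 ± 0.04 (r = 0.471). Atf3 rose by 0.55 ± 0.11 per SD of Gabarapl1 (r = 0.476), and Nr4a1 by 0.26 ± 0.05 per SD of Ddit4 (r = 0.474). Nr4a1 missed the threshold with ranks (limma adjusted p = 0.0845), principal components (0.0744) and clock and glucocorticoid scores (0.89, slope 0.08). Jun missed it with principal components (0.292) and with those scores (0.347), and Atf3 with principal components (0.0511).

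In the integrated stress response, where the factor ATF4 raises genes of amino acid supply, 3 of 14 measured genes rose and 1 fell with Fbxo32, where 3.79% and 3.64% of all genes did. Over the 9 genes 11 relations, or 8.73% of those tested in the list, were called, near the 7.2% of all genes. Atf4 rose by 0.09 ± 0.02 (r = 0.467) and Chac1 by 0.46 ± 0.09 (r = 0.474), while Ddit3, the factor CHOP, fell by 0.12 ± 0.03 (r = -0.445). The amino acid transporter subunit gene Slc3a2 rose by 0.09 ± 0.02 per SD of Trim63 (r = 0.378). Ddit3 missed the threshold with marker scores (limma adjusted p = 0.162), principal components (0.242) and clock and glucocorticoid scores (0.0544). Slc3a2 missed it under the same settings (0.0655, 0.632 and 0.509), and Atf4 with principal components (0.101). With Ddit4 and with Eif4ebp1, both known as targets of ATF4, 0 of the 14 passed, where 1.99% and 1.03% of all genes passed. For each, 4 had an unadjusted p under 0.05 in limma, among them Atf4 for Eif4ebp1 (r = 0.32, limma adjusted p = 0.101).

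Endothelial markers fell with several of the genes, with 21 of 72 relations (29.2%) called. Of 8 endothelial markers, 5 fell with Trim63, 4 with Foxo3, 4 with Sesn1, 3 with Fbxo32, 2 with Ddit4, 2 with Gabarapl1 and 1 with Bnip3, and 0 rose. Kdr fell by 0.23 per SD of Trim63, Emcn by 0.18 and Cdh5 by 0.12, while Pecam1, Vwf and Esam passed with none of the 9. The summed level of the 8 markers ranged from 160 to 369 in per-million values over the animals, with a median of 290, and the lowest log2 value of any of the 8 was 2.55. The adipocyte, blood, satellite cell and slow-fibre lists gave 0 calls over the 9 genes in limma, and 3, 0, 3 and 5 relations at an unadjusted p under 0.05, the 5 of the slow-fibre list all with Fbxo32. Of 8 fibroblast markers 2 fell with Fbxo32, and 1 each with Trim63 and Bnip3. Of 8 macrophage markers, Csf1r fell with Fbxo32 and Cd163 rose with Fbxo30, and of 7 Schwann cell markers, S100b fell with Fbxo32 and Trim63 and Sox10 with Ddit4. These were 4 of 72 fibroblast relations (5.56%), 2 of 72 macrophage relations (2.78%) and 3 of 63 Schwann cell relations (4.76%), below the 7.2% of all genes. With scores of 7 marker lists as covariates, endothelial among them, 13 of the 18 pairs were called, and the glucocorticoid targets that rose numbered 12 of 16 with Trim63 and 11 with Foxo3, but 6 with Sesn1, 3 with Gabarapl1, 2 with Fbxo32 and 1 with Bnip3, in place of 11, 8, 8 and 4.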

How the data were processed

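RNA of 92 quadriceps samples was sequenced after KAPA mRNA HyperPrep library preparation from 500 ng of RNA, per the labels' protocols. Per the submitters' processing notes, bcl2fastq, MultiQC, kallisto 0.50.1, edgeR and the build mm10 were used, with roles and settings not given in the sources used here. The deposited file holds log2 values. Back on a linear scale, each library summed to between 898071 and 1140761, so they were read as log2 per-million values. The depth of each library is therefore unknown, and precision comes from the spread between animals alone. After 15 repeated lines of 13456 were removed, 13441 genes remained, and 0 value columns were left without a sample. No pair of libraries was a duplicate. The 1 group was taken from the treatment label.

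The level of every other gene was fitted on the standardised level of each of the 9 genes with limma 3.58.1 in R 4.3.3 (empirical Bayes with a mean-variance trend, 92 animals, no covariate), with Benjamini-Hochberg adjustment over 13440 genes and a threshold of 0.05. Slopes are in log2 units for each SD of the gene fitted on. Pearson's r and Spearman's rho had two-sided permutation tests of 100000 resamples (scipy 1.17.1, numpy 2.4.6), with 1e-05 the smallest p. The script was tested on simulated data. Positions and exon lengths came from the GENCODE annotation of the same build, and promoters from RefSeq. The rule for named genes took, for each of the 9, the 3 most positive and 2 most negative partners by r among called genes with a mean of at least 1, up to 4 genes per pathway list, and every called pair with those of Foxo3. Other list genes, neighbours and joint-model genes were chosen after their values were seen. The genes and lists were chosen with earlier results of these data known. Alternatives were title-number run, 7 marker scores, 3 principal components or clock and glucocorticoid scores as covariates, removal of 2 extreme animals, log2(value + 1), a filter on a mean of at least 1, centring and ranks. Ranks over all genes and removal of animal 62 were chosen after seeing the data. Results for 2 genes that these rules named are not reported here.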

Additional observations from a re-analysis of the deposited data

How the results depend on the processing

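No paired analysis was possible because the samples form 1 group. The cause of the differences below was not tested. The clock and glucocorticoid scores are built from list genes described above. The third principal component had r between 0.241 and 0.624 with each of the 9 genes. These covariates thus share variation with the 9 genes, and what that variation reflects was not tested. The share of genes associated, with 3 principal components as covariates, was 1.36% for Fbxo32, 0.722% for Trim63, 4.31% for Fbxo30, 5.97% for Foxo3, 0.64% for Ddit4, 0.119% for Bnip3 and 1.13% for Gabarapl1, with 5 called pairs and 116 pathway relations. With clock and glucocorticoid scores it was 3.68% for Fbxo32, 0.915% for Trim63, 7.86% for Foxo3, 1.55% for Sesn1, 0.0521% for Ddit4, 0.848% for Gabarapl1 and 0.357% for Eif4ebp1, with 4 pairs and 139 pathway relations. With 7 marker scores it was 2.4% for Fbxo32, 11.7% for Fbxo30, 1.19% for Ddit4, 2.72% for Bnip3 and 0.647% for Eif4ebp1. With the title-number run it was 3.39% for Sesn1, 3.78% for Bnip3 and 0.632% for Eif4ebp1. Without the 2 most extreme animals it was 8.76% for Fbxo30, 5.97% for Foxo3, 3.06% for Bnip3 and 0.067% for Eif4ebp1, with 11 pairs. Ranks gave 0.766% for Ddit4, 3.68% for Bnip3 and 0.231% for Eif4ebp1, with 10 pairs. The filter and centring gave 19 and 20 called pairs. Leaving out animal 62 gave 2.19% for Bnip3 and 0.104% for Eif4ebp1. Genes with different slopes on Trim63 and Fbxo32 numbered 80 with principal components, 49 with clock and glucocorticoid scores and 109 with ranks. For Trim63 and Bnip3 these counts were 18, 58 and 123, and 411 without the most extreme animals. For Foxo3 and Sesn1 they were 1, 57 and 1, with 8 without the most extreme animals and 39 with marker scores. Slopes that changed sign with clock and glucocorticoid scores were those of Foxo3 per SD of Fbxo32 (-0.000353), Ddit4 per SD of Trim63 (-0.2) and Ddit4 per SD of Foxo3 (-0.1). The slope of Eif4ebp1 per SD of Foxo3 was -0.01 with principal components, -0.05 with clock and glucocorticoid scores, -0.02 without the 2 most extreme animals and -0.01 without animal 62. Of 85 named relations with other genes, 52 had the same call in all 10 settings, and log2(value + 1), the filter and centring changed none of the 85. The precision of low genes such as Ddit4 cannot be given without the depth.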

Other observations

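Of 10 p53 targets, 3 rose with Fbxo30 and 2 each with Fbxo32, Trim63, Foxo3, Sesn1 and Ddit4, and 1 rose and 1 fell with Eif4ebp1. The shares of all genes that rose were 11.3%, 3.79%, 3.49%, 6.88%, 2.49%, 1.22% and 0.603% in that order. Trp53inp1, a promoter of autophagy, rose by 0.23 ± 0.04 (SE, n = 92) log2 units per SD of Sesn1 (r = 0.535), itself a p53 target, and Cdkn1a by 0.34 ± 0.06 per SD of Trim63 (r = 0.485). The ectodysplasin receptor gene Eda2r rose by 0.30 ± 0.06 per SD of Eif4ebp1 (r = 0.446, limma adjusted p = 0.00451), and Mdm2 by 0.07 ± 0.02 per SD of Fbxo30 (r = 0.432). Of 11 hypoxia genes, 0 passed with Bnip3 in limma, although 3 had an unadjusted p under 0.05. Over the 9 genes 7 of 99 hypoxia relations (7.07%) were called, close to the 7.2% of all genes. Hif1a rose by 0.13 ± 0.02 per SD of Fbxo30 (r = 0.587), and Bhlhe40 fell by 0.16 ± 0.04 per SD of Trim63 (r = -0.411).

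Of 8 measured genes that rise in denervated muscle, 2 rose with Fbxo30, 2 with Foxo3 and 1 each with Fbxo32 and Trim63, and 2 fell with Bnip3. Over the 9 genes 8 of 72 denervation relations (11.1%) were called, against 7.2% of those of all genes, and the 2 of 8 with Fbxo30 stood beside 11.3% of all genes that rose with it. Musk, the receptor kinase of the neuromuscular junction, rose by 0.23 ± 0.05 per SD of Fbxo30 (r = 0.405) and Runx1 by 0.21 ± 0.07 (r = 0.322). The acetylcholine receptor subunit gene Chrnd fell by 0.19 ± 0.05 per SD of Bnip3 (r = -0.376), and Ncam1 by 0.18 ± 0.05 (r = -0.353). With principal components Musk (slope 0.06, limma adjusted p = 0.613), Chrnd (0.366) and Ncam1 (0.429) missed the threshold. Runx1 missed it with marker scores (slope 0.12, 0.191), and Ncam1 also with ranks (0.0519). Growth control genes had 6 of 90 relations called (6.67%), near the 7.2% of all genes. Among these 10 genes, Mstn rose by 0.17 ± 0.04 per SD of Fbxo32 (r = 0.385), Igf1r by 0.11 ± 0.03 per SD of Fbxo30 (r = 0.381) and Smad3, a transducer of myostatin signals, by 0.15 ± 0.03 per SD of Bnip3 (r = 0.416), while Igf2 fell by 0.25 ± 0.06 per SD of Bnip3 (r = -0.398).

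Of the genes within 1 Mb, 4 of 36 passed with Trim63, where 7.64% of all genes passed, with a median r of 0.0281. Among them were Cnksr1, a Ras scaffold gene 76.7 kb away (r = 0.586), and Catsper4, at 87.7 kb (r = 0.548). For Bnip3 2 of 6 passed, against 6.06% of all genes, Mapk1ip1 at 44.6 kb (r = 0.519) and Ppp2r2d at 7.8 kb (r = 0.427), which share 195 exon bases. For Fbxo30 1 of 3 passed, Shprh (r = 0.396), against 19.6% of all genes, and for Ddit4 1 of 17, Unc5b (r = -0.349), against 1.99%. For Gabarapl1 and Eif4ebp1, 0 of 5 and 0 of 7 passed in limma, where 3.44% and 1.03% of all genes passed.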
